A study of Mus musculus with 6 samples.

Results

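The genes described here encode the hippocalcin and visinin-like calcium sensors and their relative Ncs1, all of the neuronal calcium sensor family. They were chosen by symbol: the family was proposed because the CAF_CM libraries differed from the control libraries in Hpca, so the values of that contrast for these genes are given as a description, with no test. Of the 6 symbols named (Hpca, Hpcal1, Hpcal4, Ncald, Ncs1 and Vsnl1), 5 were measured among 20596 rows with a gene symbol, and Vsnl1 was not analysed here. The study placed 266.6 cells, a mouse acinar tumour line of the pancreas, in medium conditioned by cancer-associated fibroblasts for up to 40 days (CAF_CM, 3 libraries) and set them against control cells of the same line (3 libraries). Both groups are the same cell line grown in high-glucose DMEM with serum and antibiotics. The exposure is recorded as a maximum only, and the sources used here do not give the species or origin of the fibroblasts. No culture time is recorded here for the control cells. Any part of culture time in the contrast therefore cannot be told apart from that of the conditioned medium. The labels do not say that libraries came from separate cultures, so errors and p-values cover the spread among these libraries alone, and that spread may be technical. In such bulk samples a change in the number of cells that express a gene and a change in its RNA per cell cannot be told apart.

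Neuronal calcium sensors are small EF-hand proteins. An N-terminal myristoyl group is added at a glycine that follows the initiating methionine, and calcium binding in hippocalcin, neurocalcin and visinin-like proteins exposes that group and moves the protein to membranes. They are best known in neurons and photoreceptors, where they tune ion channels, receptor kinases, phosphoinositide synthesis and vesicle traffic, and Ncs1 is also present in neuroendocrine and other secretory cells.

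The first 60 coding bases of the principal GENCODE transcript of each gene are shown because they hold the site of myristoylation. Capitals mark the second codon, which was a glycine codon in all 5 genes.
Hpca: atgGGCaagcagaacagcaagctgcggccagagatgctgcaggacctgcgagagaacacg
Hpcal1: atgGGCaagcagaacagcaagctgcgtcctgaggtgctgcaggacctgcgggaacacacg
Hpcal4: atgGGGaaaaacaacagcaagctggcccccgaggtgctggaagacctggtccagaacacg
Ncald: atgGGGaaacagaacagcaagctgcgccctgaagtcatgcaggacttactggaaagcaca
Ncs1: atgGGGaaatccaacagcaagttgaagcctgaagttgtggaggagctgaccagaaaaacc
The coding parts held 193 codons before the stop in Hpca, Hpcal1 and Ncald, 191 in Hpcal4 and 190 in Ncs1.

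Hpca and Hpcal1 were the closest pair, identical at 86.1% of aligned coding bases. Ncald followed at 80.2% with Hpcal1 and 79.5% with Hpca. Hpcal4 was at 67.6% to 71.4% with these 3 genes, and Ncs1 stood furthest away, at 63.0% to 64.7% with the other 4. The last 300 bases of the Hpca coding sequence (bases 283 to 582) follow, because Hpca showed the largest difference between the groups among the 5 genes and Hpcal1, its nearest relative, a small one. Capitals mark the 51 bases of this stretch at which it differs from Hpcal1, of 81 in the whole coding sequence.
Hpca coding bases 283 to 582: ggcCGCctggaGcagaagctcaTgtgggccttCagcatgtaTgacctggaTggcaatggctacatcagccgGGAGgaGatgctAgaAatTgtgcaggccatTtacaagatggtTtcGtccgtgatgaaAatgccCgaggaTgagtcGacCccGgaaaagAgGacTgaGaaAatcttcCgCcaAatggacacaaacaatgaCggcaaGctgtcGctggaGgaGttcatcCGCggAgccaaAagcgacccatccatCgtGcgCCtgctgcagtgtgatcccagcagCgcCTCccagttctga
Of the 81 differences, 62 fell at the third position of a codon, 11 at the first and 8 at the second. The longest stretch that 2 of the coding sequences shared without a difference was 46 bases, between Hpca and Ncald, starting at base 306 of the Hpca coding sequence.
Shared by Hpca and Ncald: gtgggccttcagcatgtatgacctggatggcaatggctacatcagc
The longest such stretch of Hpca and Hpcal1 was 38 bases. The sources used here give neither the read length nor how reads in such stretches were assigned.

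**Figure D1:**
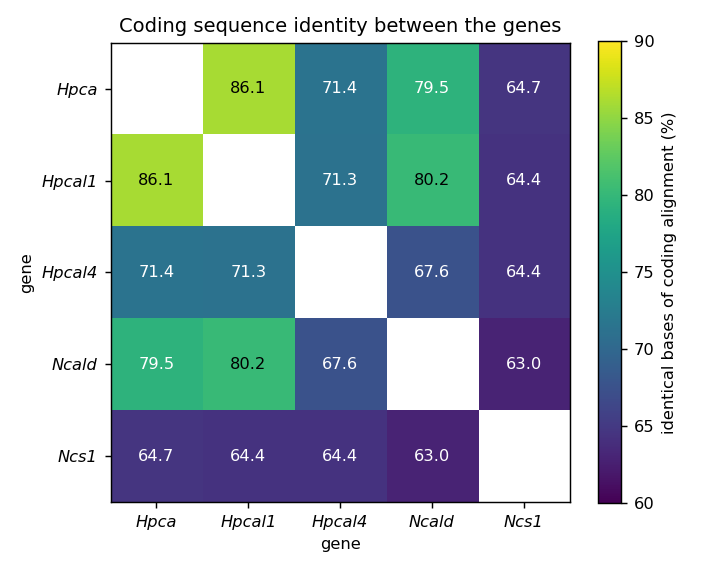
Percentage of identical bases in pairwise global alignments of the coding sequences of the 5 genes, by gene on both axes. Hpca and Hpcal1 reach 86.1%, and Ncs1 lies at 63.0% to 64.7% with every other gene.

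Hpca, which encodes hippocalcin, a sensor of hippocampal pyramidal neurons that takes part in the slow afterhyperpolarization, had the largest difference of the 5. It was at 1613, 1631 and 1410.4 normalized counts in CAF_CM replicates 1, 2 and 3, against 618, 677 and 642 normalized counts in control replicates 1, 2 and 3. The lowest CAF_CM library was above the highest control library. The group means were 1551.5 ± 122 normalized counts in CAF_CM and 646 ± 29.7 in control libraries (SD, n = 3 each). The fitted difference was 2.40-fold, with a 95% interval of 2.16 to 2.66 (log2 fold change 1.26, SE 0.068, on the log2(value + 1) scale used throughout).

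Ncs1, the family member with the widest tissue distribution, regulates phosphatidylinositol 4-kinase and exocytosis. Its values were 1228, 1179 and 1171 normalized counts in CAF_CM replicates 1, 2 and 3, against 836, 843 and 799 normalized counts in control replicates 1, 2 and 3. The groups did not overlap, and the 3 libraries of each group lay close together, with a coefficient of variation of 2.60% in CAF_CM and 2.88% in control libraries. The fitted difference was 1.44-fold, with a 95% interval of 1.33 to 1.57 (log2 fold change 0.53, SE 0.054).

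Hpcal1, a visinin-like protein of broad expression, was at 509, 469 and 453 normalized counts in CAF_CM replicates 1, 2 and 3, against 427, 409 and 445 in control replicates 1, 2 and 3. The lowest CAF_CM library was above the highest control library by a small margin. The fitted difference was 1.12-fold, with a 95% interval of 0.9995 to 1.25 (log2 fold change 0.16, SE 0.073). With libraries corrected for the length and GC content of transcripts it was larger, at 0.26 on the log2 scale.

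Ncald, which encodes neurocalcin delta, a binder of clathrin, had the most reads of the 5. Its values were 2636, 3039.9 and 2746 normalized counts in CAF_CM replicates 1, 2 and 3, against 2851, 2809.6 and 2819 in control replicates 1, 2 and 3. The groups overlapped, with CAF_CM replicate 2 above and replicates 1 and 3 below every control library. The coefficient of variation was 7.44% among CAF_CM and 0.770% among control libraries. The log2 fold change was -0.012, with a 95% interval of -0.14 to 0.11.

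Hpcal4, a visinin-like protein of brain, had the fewest reads of the 5. It was at 18.5, 40.2 and 20.9 normalized counts in CAF_CM replicates 1, 2 and 3, against 11.6, 13.3 and 24.1 in control replicates 1, 2 and 3. The groups overlapped, since control replicate 3 stood above CAF_CM replicates 1 and 3. The log2 fold change was 0.66 with a 95% interval of -0.098 to 1.41, and without CAF_CM replicate 2 it was 0.33.

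**Figure D2:**
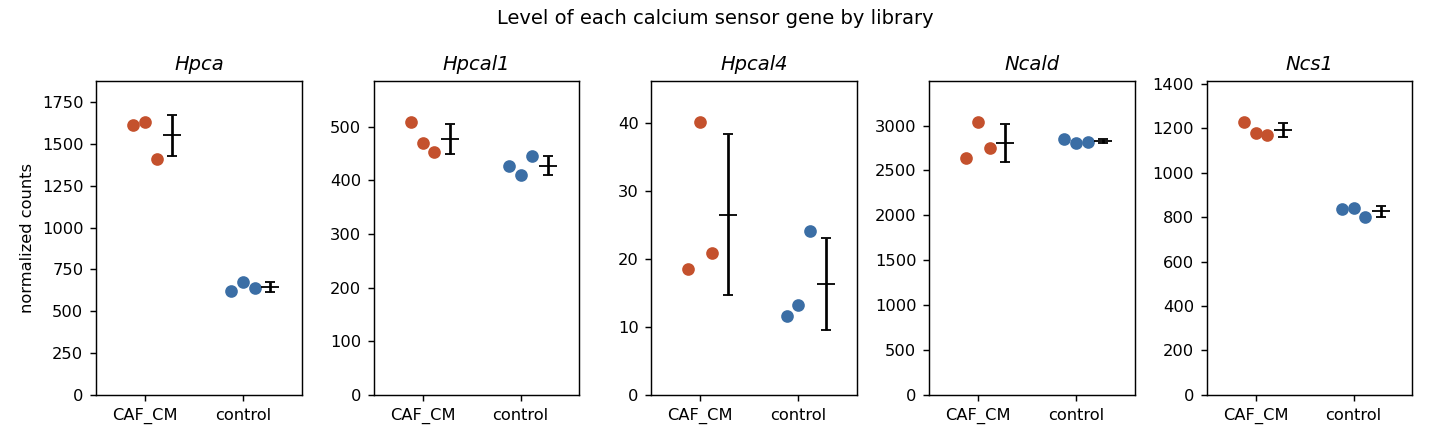
Normalized counts of Hpca, Hpcal1, Hpcal4, Ncald and Ncs1 in each library (points) with the group mean and SD (bars beside them), CAF_CM on the left and control on the right of each panel; each vertical axis starts at 0 and has its own scale. Hpca and Ncs1 separate the groups widely, whereas the Ncald points overlap around a mean of 2807 in CAF_CM and 2826.5 in control libraries.

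By limma with Benjamini-Hochberg adjustment, 34.4% of the 16169 genes tested were past an adjusted p of 0.05 in either direction, with 18.3% higher and 16.1% lower in CAF_CM libraries. All 5 family genes passed the filter on low values, and no test of them is given. The libraries of the groups did not overlap, with CAF_CM higher, for Hpca, Hpcal1 and Ncs1 and for 24.8% of all genes tested. Nothing is read from this count of family genes, since the family was chosen with this contrast known. The median log2 fold change of the 5 genes was 0.53, and that of all genes tested was 0.0046.

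Unequal change within the family can be read inside each library, where scaling between libraries has no part. Per 100 normalized counts of Ncald, Hpca gave 61.2, 53.6 and 51.4 in CAF_CM replicates 1, 2 and 3, against 21.7, 24.1 and 22.8 in control replicates 1, 2 and 3. Ncs1 gave 46.6, 38.8 and 42.7 in CAF_CM replicates 1, 2 and 3, against 29.3, 30.0 and 28.3 in control replicates 1, 2 and 3. Both ratios were higher in each CAF_CM library than in each control library. For Hpcal1 the ratio per 100 of Ncald was 19.3, 15.4 and 16.5 in CAF_CM libraries, against 14.97, 14.6 and 15.8 in control libraries, and the groups overlapped. These ratios describe the same contrast and are no independent support.

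Levels were compared between genes per kilobase of the principal transcript, which was 1847 bases for Hpca, 1526 for Hpcal1, 4931 for Hpcal4, 3733 for Ncald and 4653 for Ncs1. In CAF_CM libraries the level of Hpca was 840.0 ± 66.3 normalized counts per kilobase (SD, n = 3), against 349.65 ± 16.1 in control libraries. These lay at the 87.0th and the 70.7th percentile of the 15362 tested genes with a known length. Genes below the filter on low values had no part in these percentiles, which would be higher with them. Ncald was at 752 ± 55.9 per kilobase in CAF_CM and 757 ± 5.83 in control libraries. Hpcal1 was at 312 ± 18.8 per kilobase in CAF_CM and 279.7 ± 11.7 in control libraries, and Ncs1 at 256 ± 6.65 in CAF_CM and 177 ± 5.10 in control libraries. Hpcal4, at 5.38 ± 2.41 per kilobase in CAF_CM and 3.31 ± 1.38 in control libraries, lay at the 4.89th and the 1.59th percentile of the same tested genes.

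In control libraries the order per kilobase was Ncald, Hpca, Hpcal1, Ncs1 and Hpcal4, and no neighbours in that order overlapped between libraries. In CAF_CM libraries Hpca and Ncald overlapped, with 764 to 883 per kilobase for Hpca and 706 to 814 for Ncald, and the order below them was the same. Hpca made up 38.7% ± 1.43 of the summed level per kilobase of the 5 genes in CAF_CM and 22.3% ± 0.955 in control libraries, and Ncald made up 34.7% ± 2.03 in CAF_CM and 48.3% ± 0.563 in control libraries. The summed level was 2166 ± 108 per kilobase in CAF_CM and 1567 ± 6.21 in control libraries. With all annotated exons joined as the length, which makes Ncald 8581 and Hpca 2922 bases long, Hpcal1 stood above Hpca in control libraries (252 against 221 per kilobase) and Hpca stood above Ncald in every CAF_CM library, with means of 531 and 327 per kilobase.

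**Figure D3:**
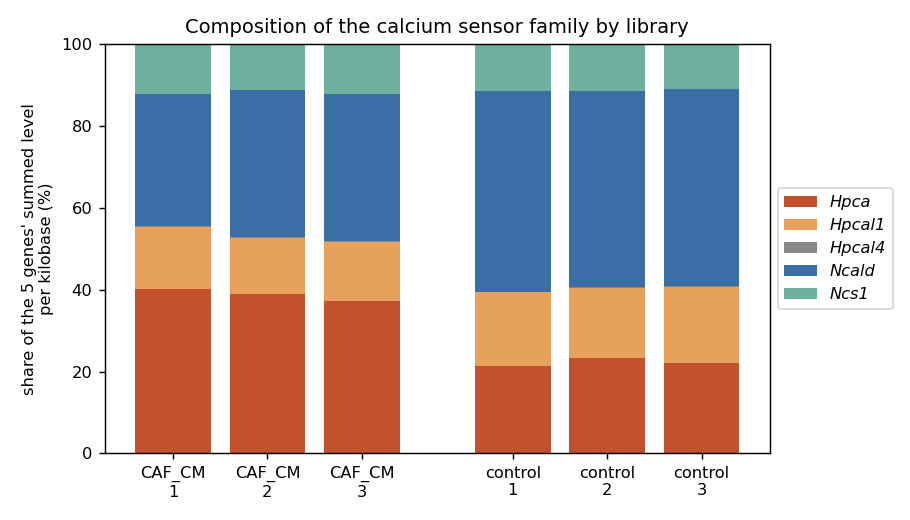
Share (%) of each of the 5 genes in their summed level per kilobase of principal transcript, for CAF_CM libraries on the left and control libraries on the right. The Hpca share is 37.2% to 40.1% in CAF_CM and 21.5% to 23.3% in control libraries, and Hpcal4 is too small to be seen.

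The sequence before the start of Hpca and of Ncs1, the pair with the widest gap between the groups relative to its error, is shown from the RefSeq promoter table (GRCm38.p6), without bases that GENCODE places in an exon of the gene. Capitals mark GC boxes, the letters GGGCGG or their reverse complement on the printed strand.
Hpca, chr4:129121308-129121553, minus strand: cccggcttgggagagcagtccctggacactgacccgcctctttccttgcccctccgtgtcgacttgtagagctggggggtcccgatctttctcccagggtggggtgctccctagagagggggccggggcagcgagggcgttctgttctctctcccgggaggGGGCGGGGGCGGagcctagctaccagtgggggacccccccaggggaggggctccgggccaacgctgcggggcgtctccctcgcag
Ncs1, chr2:31245673-31245822, plus strand: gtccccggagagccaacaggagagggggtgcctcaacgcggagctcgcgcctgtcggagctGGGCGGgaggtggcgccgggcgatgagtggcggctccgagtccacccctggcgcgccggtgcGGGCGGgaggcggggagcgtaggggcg
The Hpca stretch lies within the span of 6 of its 9 GENCODE transcripts, outside their exons, and precedes one of 3 RefSeq starts. It was chosen among the 3 Hpca windows because only 4 of its 250 bases are exon of the gene. The window nearest the principal start holds 163 exon bases, 1 GC box and 2 E boxes, and the chosen one holds 2 GC boxes and 0 E boxes. In the full 250 bases, a GC box was found before at least 1 start of each of the 4 family genes that the table holds (Hpca, Hpcal1, Hpcal4 and Ncs1). It was found in 32.7% of 32851 promoters in all. The Hpca window furthest from the principal start had 0 GC boxes. Shares of all promoters are per window, whereas Hpca has 3 windows, so genes and shares are not counted alike. The GC content was 58.8%, 71.2% and 51.2% in the Hpca windows, from nearest to furthest. It was 66.8% for Hpcal1, 60.4% for Hpcal4 and 75.6% for Ncs1, beside a median of 52.4% over all promoters. The E box CANNTG was found before at least one start of Hpca, Hpcal4 and Ncs1 and in 66.2% of all promoters. The letters TTCNNNGAA, as bound by STAT factors, were found in none of these windows and in 7.02% of all promoters. The form CAGATG, which is also an E box, was found before Hpcal4 alone of these genes and in 14.4% of all promoters. All 250 bases of that Hpcal4 window are exon of the gene in GENCODE. The same holds for the Hpca window furthest from the principal start, and for 100 bases of the Ncs1 window. The left part of the REST site (RE1), TTCAGCACC, and its right part were in none of these windows and in 0.30% and 0.42% of all promoters. Both strands were searched, and a match is a description only.

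Genes beside the family genes on the chromosome were read as local context. One exon of Hpca shares 57 bases with an exon of Tmem54 on the opposite strand, and the labels do not say whether counting used the strand, so reads there cannot be told apart. Tmem54 averaged 265 normalized counts in CAF_CM and 202 in control libraries (log2 fold change 0.39, SE 0.098, limma adjusted p = 0.00974), fewer than Hpca in both groups. Exons of Ncald share 347 bases with Gm28221 on the opposite strand and 286 bases with Gm49397 on the same strand, and these overlapping genes were not analysed here. The measured gene next to Hpca on its higher-coordinate side, Fndc5, which encodes the precursor of irisin, was at 563, 640.5 and 485 normalized counts in CAF_CM replicates 1, 2 and 3, against 417, 376 and 406 in control replicates 1, 2 and 3. It rose by 0.48 on the log2 scale (SE 0.096, limma adjusted p = 0.00277). Rnf19b on the other side had 789, 834 and 773 normalized counts in CAF_CM, against 750.3, 795 and 729.55 in control libraries (log2 fold change 0.075, limma adjusted p = 0.374). A called neighbour was not particular to Hpca: Odc1, 139351 bases from Hpcal1, rose by 0.35 (limma adjusted p = 0.00975). Fndc5 lies 14963 bases from Hpca. Of all genes tested, 34.4% were called in either direction. Gpr107 and Ass1, 27048 and 174218 bases from Ncs1, were not past the threshold (limma adjusted p = 0.163 and 0.0843). Neither were Gm49326 beside Hpcal1 and the measured neighbours of Hpcal4 and Ncald (limma adjusted p of 0.344 to 0.740).

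Markers of other cell types were set beside the Hpca values. Of 13 neuronal markers 9 were measured, and Slc17a6, Gad1, Gad2 and Stmn2 were not analysed here. Their summed level was 6679 to 7547 normalized counts in CAF_CM and 5391 to 5560.1 in control libraries, and 7 of the 9 rose (limma), beside 18.3% of all genes tested, among them Rbfox3 (117 to 133 in CAF_CM and 54.9 to 56.5 in control libraries) and Elavl4 (23.7 to 27.8 in CAF_CM and 10.5 to 13.3 in control libraries). None of the 9 was at 0 in any library. The part of these markers in the Hpca values was not tested. Of 11 fibroblast markers 8 were measured, with a summed level of 3165 to 3649 normalized counts in CAF_CM and 3515 to 3710.4 in control libraries, of which Pdgfrb gave most. Of the 7 tested, Col1a2 rose (87.3 to 127 in CAF_CM and 77.1 to 80.6 in control libraries, limma adjusted p = 0.0299) and Dcn fell (16.1 to 30.4 in CAF_CM and 38.5 to 52.3 in control libraries, adjusted p = 0.0130), and Col1a1 was at 9.49 to 14.4 in CAF_CM and 6.12 to 11.5 in control libraries. Of 12 islet markers 8 were measured, with sums of 27467 to 29429 normalized counts in CAF_CM and 36088 to 36586 in control libraries, most of it Chga. Of the 6 tested, Chga fell, whereas Neurod1, a transcription factor of islet cells and neurons, was at 292, 177 and 229 normalized counts in CAF_CM replicates 1, 2 and 3, against 54.9, 51.0 and 57.6 in control replicates 1, 2 and 3, and rose by 2.05 on the log2 scale (limma adjusted p = 2.0e-05). Isl1 was at 92.1 to 113 in CAF_CM and 77.1 to 85.8 in control libraries (adjusted p = 0.0700), and the hormone gene Gcg was at 5.69 to 13.7 in CAF_CM and 6.28 to 10.6 in control libraries. The markers of glia, immune and endothelial cells summed to at most 457, 103 and 191 normalized counts in CAF_CM and 323, 109.9 and 226 in control libraries. All 11 acinar markers were measured, at very unequal levels. They summed to 38522 to 45290.0 normalized counts in CAF_CM and 69264 to 71761 in control libraries, most of it Ctrb1 and Cela1. The lipase gene Pnlip was only at 6.86 to 11.3 in CAF_CM and 5.23 to 13.5 in control libraries, as low as Gcg. Of the 11, 5 fell (Ctrb1, Cela1, Rbpjl, Cela2a and Cel) and Nr5a2 rose (0.22 on the log2 scale, limma adjusted p = 0.0131). Of all genes tested, 16.1% were lower and 18.3% higher. Cela2a had low values, at 5.69 to 12.4 in CAF_CM and 19.9 to 23.5 in control libraries. So had Cel, at 8.81 to 10.3 in CAF_CM and 14.4 to 30.6 in control libraries, past the threshold by little (limma adjusted p = 0.0498). Cpa1, Ptf1a and Bhlha15 had log2 fold changes of 0.12 to 0.15 and were not past the threshold.

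The other neuronal calcium sensor genes were expressed at low levels. Of 7 listed, 5 had a row, and the 4 genes for potassium channel interacting proteins (Kcnip1 to Kcnip4), which set the gating and surface expression of Kv4 channels, were tested. Kcnip2 was at 76.2, 61.7 and 69.3 normalized counts in CAF_CM replicates 1, 2 and 3, against 40.5, 38.8 and 51.3 in control replicates 1, 2 and 3, and rose by 0.66 on the log2 scale (SE 0.17, limma adjusted p = 0.0108). Kcnip3, which also acts in the nucleus as the repressor DREAM, was at 45.3, 48.0 and 47.5 normalized counts in CAF_CM, against 34.7, 28.6 and 36.6 in control libraries. It was past the threshold by little, with a log2 fold change of 0.49 and limma adjusted p = 0.0489. Kcnip1 (98.8, 156 and 78.8 normalized counts in CAF_CM, against 111, 89.8 and 91.1 in control libraries) and Kcnip4 (22.7, 36.2 and 34.2 in CAF_CM, against 37.6, 29.6 and 39.8 in control libraries) overlapped between the groups. Guca1b, an activator of photoreceptor guanylyl cyclase, was at 1.02 to 2.85 normalized counts in all libraries and was not tested. Without control replicate 2, Kcnip2 had adjusted p = 0.0505. Kcnip3 was not past the threshold when any 1 of the 6 libraries was left out (limma adjusted p of 0.0649 to 0.174) or by edgeR (adjusted p = 0.0530) and DESeq2 (0.207).

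Kcnd2, which encodes a Kv4 channel that Kcnip proteins and Ncs1 bind, had low values and rose, among the 15 tested genes for known partners of the family. Of these 15, 5 rose and 0 fell (limma), beside 18.3% higher and 16.1% lower of all genes tested, and the list median was 0.12. In either direction that is 33.3% called, near the 34.4% of all genes tested. Arf1, the small GTPase that acts with Ncs1 on phosphatidylinositol 4-kinase at the Golgi, was at 14129, 13788 and 13261 normalized counts in CAF_CM replicates 1, 2 and 3, against 11133, 10788 and 10911 in control replicates 1, 2 and 3 (log2 fold change 0.33, SE 0.047, limma adjusted p = 4.08e-04). Map3k10, a kinase reported to bind hippocalcin, rose by 0.29 (SE 0.059, adjusted p = 0.00304). The other members called were Kcnd2 (26.9 normalized counts on average in CAF_CM and 9.69 in control libraries), Ap2b1, a subunit of the clathrin adaptor that binds hippocalcin (0.26), and Cltc, the clathrin heavy chain that neurocalcin binds (0.31). The kinase gene Pi4kb itself averaged 897 normalized counts in CAF_CM and 893 in control libraries (log2 fold change 0.0073, adjusted p = 0.939). At an unadjusted p under 0.05, 0 of the 15 fell (limma), beside 3385 of all 16169 genes tested. Neither edgeR nor DESeq2 called a fall in this list. With so few genes, nothing is read from the absence of falls.

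Of 6 genes for myristoylation and the handling of myristoylated proteins, 3 rose and 0 fell (limma), beside 18.3% higher and 16.1% lower of all genes tested. Unc119b, which carries myristoylated cargo, was at 2686, 2926 and 2752 normalized counts in CAF_CM replicates 1, 2 and 3, against 2123, 2159.8 and 2092 in control replicates 1, 2 and 3 (log2 fold change 0.39, SE 0.050, adjusted p = 2.15e-04). Metap2, a methionine aminopeptidase that exposes the glycine, rose by 0.22 (SE 0.051, adjusted p = 0.00632), and Nmt1, an N-myristoyltransferase, by 0.17 (adjusted p = 0.0200). Nmt2 averaged 633 normalized counts in CAF_CM and 606 in control libraries and was not past the threshold. At an unadjusted p under 0.05, 0 of the 6 fell (limma), beside 3385 of all 16169 genes tested. Neither edgeR nor DESeq2 called a fall in this list, which is too short for its absence to be read as a result.

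Among 34 tested genes for other EF-hand proteins, 5 rose and 11 fell (limma), beside 18.3% higher and 16.1% lower of all genes tested, with a median log2 fold change of -0.15. Among the genes that rose were Chp1, a calcineurin B homolog that is itself myristoylated, Calm3, Calb1 and Efhd2. Chp1 was at 2128, 2067 and 1866 normalized counts in CAF_CM replicates 1, 2 and 3, against 1445, 1514 and 1475 in control replicates 1, 2 and 3 (log2 fold change 0.45, SE 0.058, limma adjusted p = 2.39e-04). Calm3, which encodes calmodulin, rose by 0.36 (adjusted p = 3.05e-04), whereas Calm2, which also encodes it and is the most abundant of the list by normalized counts, averaged 10540.0 in CAF_CM and 10202 in control libraries (log2 fold change 0.047, adjusted p = 0.446). Nucb1, a calcium-binding protein of the Golgi, was at 2967, 2916.5 and 2896 normalized counts in CAF_CM, against 3687, 3773 and 3562 in control libraries (log2 fold change -0.33, SE 0.046, adjusted p = 3.60e-04). Its relative Nucb2 (-0.32), Sdf4 (-0.26) and Rcn2 (-0.25) also fell, whereas Rcn3 (log2 fold change 0.091) and Calu (-0.023) were not past the threshold. Sri, which encodes sorcin, was at 1.03, 1.96 and 0 normalized counts in CAF_CM, against 22.2, 20.4 and 17.8 in control libraries, and S100a1, S100a10, S100a13, Calml4, Chp2 and Necab3 fell as well. The falls numbered 7 without control replicate 1, 2 or 3.

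Of 24 tested genes for calmodulin-dependent kinases, calcineurin and its targets, 8 rose and 1 fell (limma), with a median of 0.088. That is 37.5% called, near the 34.4% of all genes tested. All 3 genes for regulators of calcineurin rose. Rcan2 was at 613, 643 and 579 normalized counts in CAF_CM replicates 1, 2 and 3, against 467, 453 and 426 in control replicates 1, 2 and 3 (log2 fold change 0.45, SE 0.070, limma adjusted p = 6.77e-04), and Rcan1 and Rcan3 had log2 fold changes of 0.32 and 0.27. Nfatc3, a transcription factor that calcineurin activates, rose by 0.28 (adjusted p = 9.45e-04). Camk1d (0.63) and the kinase inhibitor gene Camk2n2 (0.28) also rose, whereas Camk2n1, the related inhibitor, fell by 0.27 (limma adjusted p = 0.00421). Camk2g (0.18, limma adjusted p = 0.0490) and the catalytic calcineurin gene Ppp3ca (0.14, limma adjusted p = 0.0476) were past the threshold by little. Ppp3r1, the calcineurin B subunit and the most abundant of the list by normalized counts, averaged 3271 in CAF_CM and 3053 in control libraries (log2 fold change 0.097, adjusted p = 0.200). The rises numbered 5 without control replicate 1 or 3 and with library totals used for scaling, and 6 by edgeR and by DESeq2. They numbered 10 after the correction for transcript length and GC content.

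Of 23 tested genes for calcium stores, pumps and entry, 1 rose and 4 fell, 21.7% called beside 34.4% of all genes tested, with a median of -0.14. Both sensors of store depletion fell. Stim1 was at 1179, 1318 and 1219.7 normalized counts in CAF_CM replicates 1, 2 and 3, against 1579, 1559 and 1534.5 in control replicates 1, 2 and 3 (log2 fold change -0.33, SE 0.056, limma adjusted p = 0.00106), and Stim2 fell by 0.31 (adjusted p = 9.05e-04). Their channel Orai1 (-0.35) and the Golgi pump Atp2c1 (-0.16) fell as well. Slc8a2, a sodium and calcium exchanger, rose by 0.21 (adjusted p = 0.0400). Its log2 fold change was much the same with single libraries left out, but past the threshold only without CAF_CM replicate 3 (0.24, adjusted p = 0.0413). It was 0.19 without CAF_CM replicate 1 (adjusted p = 0.0616) and without CAF_CM replicate 2 (0.0638). Without control replicate 1, 2 or 3 it was 0.18, 0.21 and 0.24, with adjusted p of 0.157, 0.118 and 0.0622. Atp2a2, the reticulum pump with the highest values of the list, averaged 11829 normalized counts in CAF_CM and 12067 in control libraries (adjusted p = 0.671). The falls numbered 7 without CAF_CM replicate 2, and 2 without CAF_CM replicate 3, control replicate 1 or control replicate 2. The rises numbered 4 without CAF_CM replicate 1 and 0 without control replicate 1 or 3.

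Over the 6 related lists together, 24 of 105 tested genes rose and 16 fell. That is 38.1% called, beside 34.4% of all genes tested. The falls numbered 10 without control replicate 1 or 2.

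**Figure D4:**
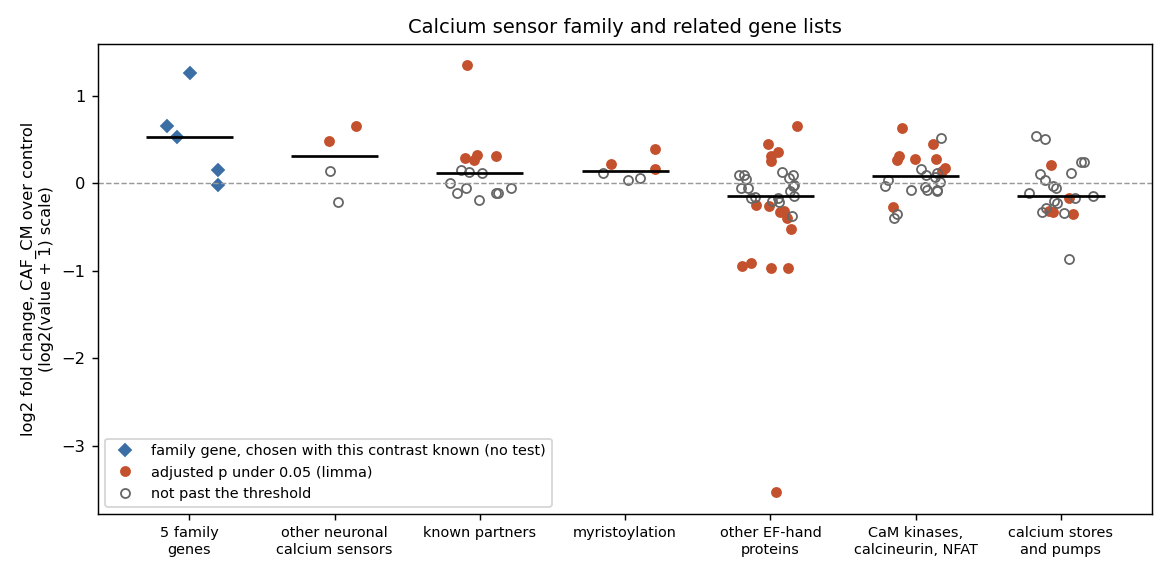
Log2 fold change of CAF_CM over control libraries (vertical axis, log2(value + 1) scale) for the 5 family genes, given with no test, and for the tested genes of 6 related lists; filled circles are past an adjusted p of 0.05 and bars are medians. Hpca lies highest among the 5 family genes at 1.26, and among the other lists Kcnd2 lies highest and Sri lowest.

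Among 10634 other genes with a mean of at least 100 normalized counts, the 5 whose log2 values followed those of Hpca most closely over the 6 libraries were Ppp1ca, Actr1a, Prkaca, Wipf1 and Glis2, with Pearson correlations of 0.998 to 0.999. All 6 points share the 2 groups, and the correlation mostly describes the step between them. Ppp1ca, a catalytic subunit of protein phosphatase 1, was at 8104, 8089 and 7984 normalized counts in CAF_CM replicates 1, 2 and 3, against 7298, 7384 and 7304 in control replicates 1, 2 and 3, a log2 fold change of 0.14. The step was thus far smaller than that of Hpca, and it lay between 0.14 and 0.41 in the 5 genes. Like Hpca, all 5 had their lowest CAF_CM value in replicate 3. Their choice by correlation over these same libraries favours such a shared order, so it is no separate observation. Among the family genes, Ncs1 had a correlation of 0.991 with Hpca, Hpcal1 0.812, Hpcal4 0.611 and Ncald -0.074.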

How the data were processed

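Per the labels' protocols, RNA of the mouse line 266.6 went into Illumina TruSeq libraries, 3 in each of 2 groups. DESeq2, FastQC and the human build hg19 stand in the submitters' processing notes, although the gene symbols are those of mouse. Aligner, counting program and mouse build are not given in the sources used here. The deposited values are a signal without negative numbers, in which the authors had divided read counts by 1 factor per library. In each library 100% of values were whole multiples, within 0.001 of a read, of the worth of 1 read (0.949 to 1.047), and 18622370 to 21002226 reads per library were recovered. Rows without a symbol (168 of 20764, 0.153% to 0.261% of reads) stayed out. No row had fewer than 10 reads in all.

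The test was limma 3.58.1 (R 4.3.3) with a variance trend on log2(value + 1), over 16169 genes that reached a value of 10 in 3 or more libraries, with Benjamini-Hochberg adjustment at 0.05. A run on simulated counts with 200 changed genes served as a check of the code only. In the data 5555 genes were called, so that run does not show how the test behaves at such a share. Alternatives were edgeR 4.0.16 and DESeq2 1.42.0 on recovered reads, other pseudocounts, filters and scalings, a spline correction for transcript length and GC content, a replicate block, and omission of single libraries. The edgeR count test called 2888 genes higher and 2682 lower.

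Transcripts, lengths and coding sequences came from GENCODE M21 (GRCm38). Protein sequences were not used, so identity was computed on coding bases. The members, gene lists and tests were chosen with earlier results of these data known. Named genes are the family, every other neuronal calcium sensor gene with a row, up to 2 called genes per direction and the most abundant gene of each list, and the 5 genes most correlated with Hpca; further list members were named after their values were seen.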

Additional observations from a re-analysis of the deposited data

How the results depend on the processing

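Over 16 alternatives the log2 fold change, given as a description, was 1.22 to 1.36 for Hpca and 0.48 to 0.54 for Ncs1. Hpca was 1.36 and Hpcal1 0.26 after the correction for transcript length and GC content, and Ncs1 was 0.48 when only library totals were used for scaling; the cause was not tested. Hpcal1 ranged from 0.11 to 0.26, Ncald from -0.071 to 0.032 and Hpcal4 from 0.33 to 0.96. With each library left out in turn, genes higher over the whole table numbered 1865 to 3497 and genes lower 1612 to 2945, and in the 6 related lists together 18 to 26 rose and 10 to 20 fell. Library totals moved the split to 2231 higher and 3179 lower, and the length and GC correction moved it to 3446 and 2448. With all exons joined as the length, an alternative chosen after seeing the data, the level per kilobase in control libraries was 221 for Hpca, 252 for Hpcal1 and 329 for Ncald. Libraries that share a replicate number were not shown to be paired: their deviations from the group means correlated at 0.0703, 0.0291 and 0.0305, although each library correlated best with its own number. With the replicate number as a block, 3166 genes were higher and 2755 lower, 1 other neuronal calcium sensor gene rose, and 3 calcium store genes rose and 7 fell. Of the calcium store genes, DESeq2 called 0 higher and 2 lower. Hpcal4 rests on 12 to 41 reads a library and varied by 44.7% among CAF_CM and 41.65% among control libraries (coefficient of variation); the part of counting error in this was not tested.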
